A study of Rattus norvegicus with 24 samples.

Results

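Tat, Ppargc1a and G6pc1 are classical glucocorticoid targets of the liver that govern amino acid breakdown and glucose production, and they were taken by Ensembl identifier, as known targets of the hormone. Of the 3 identifiers, ENSRNOG00000016348 (Tat) and ENSRNOG00000004473 (Ppargc1a) were analysed, out of 30560 genes in all. ENSRNOG00000051171 (G6pc1) was not analysed here. The samples were whole liver and whole lung of wild-type Sprague Dawley rat pups, harvested on postnatal day 6. From postnatal day 1 the pups had been injected under the skin once a day, 5 times in all, and they were killed 24 hours after the last dose. One group received vehicle with 2.5% ethanol, another dexamethasone at 0.1 mg/kg, and the last desisobutyryl ciclesonide at 1.25 mg/kg. Each treatment has 4 lung and 4 liver libraries of polyadenylated RNA. Litter and sex of the pups are not given in the sources used here, so the p-values measure only the spread between these libraries.

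Glucocorticoids are steroid hormones that bind a receptor in the cytoplasm, which then moves to the nucleus and acts on target genes. In the liver they favour the breakdown of amino acids and the making of glucose from the carbon that is left. Tat encodes tyrosine aminotransferase, the liver enzyme that opens the breakdown of tyrosine, and its induction by glucocorticoids is a textbook example of hormone action. Ppargc1a encodes a coactivator that binds transcription factors and raises genes of mitochondrial respiration and, in liver, of gluconeogenesis. It is also active in muscle, heart and brown fat. Both drugs are synthetic steroids that activate this receptor, desisobutyryl ciclesonide being what the inhaled prodrug ciclesonide is converted to in the body.

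Libraries held 15839958 to 27881158 counts on genes in lung and 15397992 to 26194384 in liver. The files for desisobutyryl ciclesonide carry a numbering series of their own, and 1.08% ± 0.158 (SD, n = 4) of the entries of these lung libraries and 1.10% ± 0.258 of the liver ones were unaligned reads. In the vehicle libraries the shares were 2.64% ± 0.287 and 2.69% ± 0.522. The numbering series and the drug cannot be told apart in any comparison with desisobutyryl ciclesonide, since each series holds only some of the treatments. The drugs were given at different doses, so differences between them are differences between these treatment groups and not between equal amounts of drug. In 2 lung dexamethasone libraries, replicates 3 and 4, a set of 49 genes exceeded the remaining lung libraries by at least 4-fold each. Lung and tissue differences that use these libraries are given with and without them. The files do not pair identifiers with gene names, so liver and lung could not be checked against named marker genes. As a substitute, 162 genes with at least 100 CPM in vehicle liver and at least 256-fold higher there than in vehicle lung were summed, with Tat itself left out. CPM is the usual depth-scaled count, here on library sizes adjusted within each tissue by TMM, a method that corrects for a few very abundant genes. They made up 327441 to 413019 CPM in the liver libraries and 225 to 1233 CPM in the lung libraries.

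In liver, Tat rose strongly with dexamethasone. The vehicle libraries stood at 107, 83.4, 204 and 495 CPM for replicates 1 to 4. The dexamethasone libraries stood at 1358, 4809.9, 1683 and 3156 CPM. Every dexamethasone library lay above every vehicle library, and the lowest of them was well above the highest vehicle value. The group means were 2752 ± 1579.6 CPM (SD, n = 4) and 222 ± 189 CPM, a 12.4-fold difference (95% interval 4.87 to 31.4) or a log2 change of 3.63 (SE 0.61, adjusted p = 0.000517 by edgeR's quasi-likelihood test). Only 0.823% of the 13734 genes tested in liver had a larger log2 rise, with falls not counted. In whole tissue, more RNA per cell and more cells of the type that makes it cannot be told apart. The summed liver-restricted genes ranged from 346263 to 402781 CPM with vehicle and from 354404 to 413019 CPM with dexamethasone, so their ranges overlapped.

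**Figure D1:**
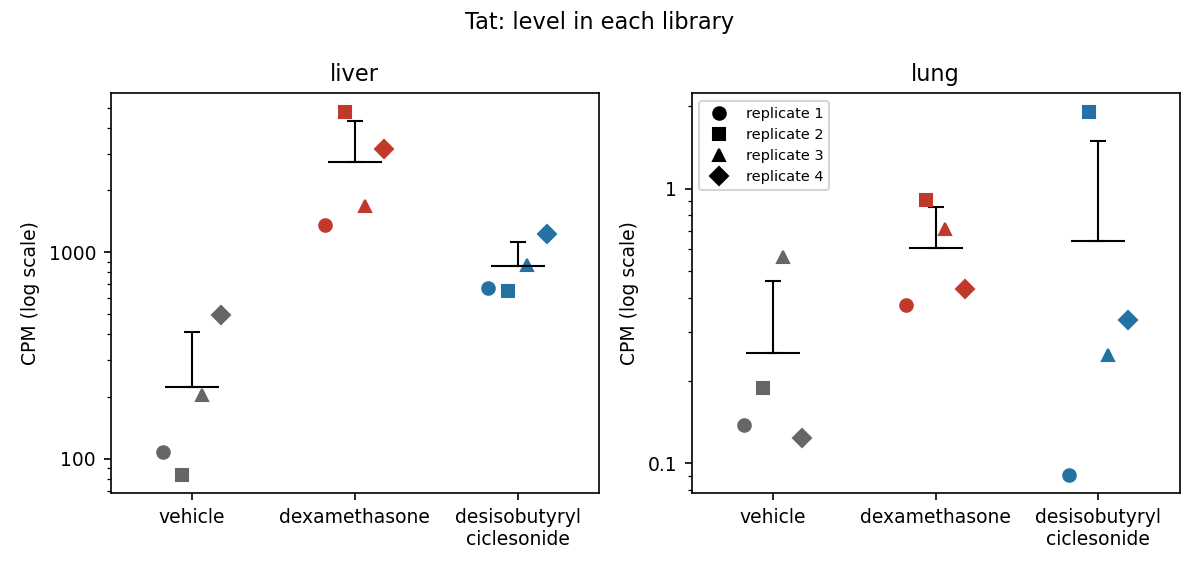
Tat level in each library, in CPM on a logarithmic axis, for liver (left) and lung (right). Each symbol is 1 library, with its shape giving the replicate number, and the horizontal bar and whisker give the mean and 1 SD above it (n = 4). In liver the 4 dexamethasone libraries lie between 1358 and 4809.9 CPM, above all others, while every lung library is under 2 CPM.

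With desisobutyryl ciclesonide, liver Tat stood at 669, 651, 873 and 1233 CPM, a mean of 856 ± 270.4 CPM (SD, n = 4). All 4 values lay above the highest vehicle value of 495 CPM and below the lowest dexamethasone value of 1358 CPM, so the treatments were ordered without overlap. The log2 difference from vehicle was 1.95 (SE 0.57, 95% interval 0.69 to 3.20), a 3.85-fold difference. It did not pass the threshold of 0.05 (adjusted p = 0.0816 by the quasi-likelihood test). Values that lie higher without overlap were seen in 7.58% of genes in this comparison, and 4.52% of genes were called in either direction. The call changed with vehicle replicate 4 and with the method. Without that library the log2 difference was 2.70 and the adjusted p 0.0128 by the quasi-likelihood test. With it kept, DESeq2 and limma-voom passed the threshold, with adjusted p of 0.0287 and 0.0193. Over all alternatives the adjusted p ranged from 0.0128 to 0.185.

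Tat was among the most variable genes of vehicle liver. Its highest library was 5.94-fold above its lowest, where the median over 12524 genes with at least 1 CPM was 1.44-fold. In that group 0.814% of genes had a larger SD of log2 CPM than Tat, whose SD was 1.15. The libraries of the drug groups were closer together, with the highest 3.54-fold above the lowest with dexamethasone and 1.89-fold with desisobutyryl ciclesonide. The lowest liver count of Tat was 1614, so counting error is small beside this spread.

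Liver Ppargc1a also rose with dexamethasone, from a much sparser signal. The 4 vehicle libraries held 10, 11, 13 and 33 counts, or 0.548, 0.568, 0.722 and 1.76 CPM. At this depth 10 counts carry an exact Poisson interval of 0.263 to 1.01 CPM at 95%, which covers counting error only. With dexamethasone the level was 4.05, 29.2, 3.91 and 6.24 CPM in replicates 1 to 4. All dexamethasone libraries were above all vehicle libraries, and replicate 2 stood far above the other 3. The means were 10.9 ± 12.3 CPM (SD, n = 4) against 0.90 ± 0.579 CPM, with a log2 change of 3.58 (SE 0.69, adjusted p = 0.00110 by the quasi-likelihood test), or 11.9-fold (95% interval 4.21 to 33.8). Without dexamethasone replicate 2 the log2 change was 2.39 (adjusted p = 0.000187), within a range of 3.54e-09 to 0.00635 over all alternatives. Both genes analysed were thus called higher with dexamethasone in liver, where 22.5% of all genes tested were called higher, and in both the groups did not overlap, which held for 20.2% of genes in that direction.

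**Figure D2:**
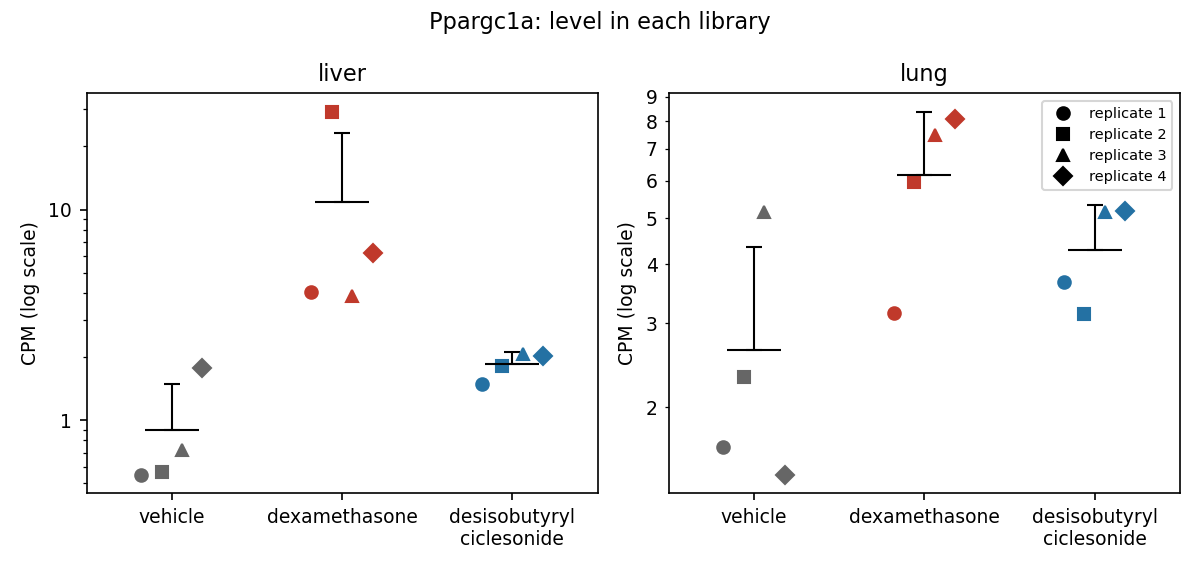
Ppargc1a level in each library, in CPM on a logarithmic axis, for liver (left) and lung (right). Symbols, bars and whiskers are as for Tat: 1 symbol per library, the mean and 1 SD above it (n = 4). In liver, dexamethasone replicate 2 at 29.2 CPM stands apart from the other 3 at 3.91 to 6.24 CPM, and in lung the groups overlap.

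Under desisobutyryl ciclesonide, liver Ppargc1a was at 1.48, 1.80, 2.05 and 2.03 CPM, a mean of 1.84 ± 0.264 CPM (SD, n = 4). Vehicle replicate 4, at 1.76 CPM, fell inside this range, while the other vehicle libraries lay below it. The log2 difference from vehicle was 1.03 (SE 0.70, 95% interval -0.50 to 2.55) and did not pass the test (adjusted p = 0.433). Neither gene was therefore called in this comparison by the quasi-likelihood test, while at an unadjusted p under 0.05 only Tat would be. DESeq2 and limma-voom called Tat and did not call Ppargc1a. The interval leaves room for a 5.87-fold rise as well as for no change.

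Set against each other, the drug groups differed for both genes in liver. Tat was 3.21-fold lower with desisobutyryl ciclesonide than with dexamethasone, a log2 difference of -1.68 (SE 0.57, adjusted p = 0.0297). Ppargc1a was 5.85-fold lower, a log2 difference of -2.55 (SE 0.64, adjusted p = 0.00629). In neither gene did the drug groups overlap. Here 22.5% of genes tested were called lower and 19.8% lay lower without overlap. The call for Tat was lost, with adjusted p between 0.0612 and 0.0992, when any of 5 single libraries was left out: dexamethasone replicates 2 and 4, and desisobutyryl ciclesonide replicates 1, 2 and 3. For Ppargc1a all 20 alternatives passed, some of which left out a vehicle library, outside this comparison. Without dexamethasone replicate 2 the log2 difference shrank to -1.35.

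Within the liver groups the libraries with most Tat also tended to hold most Ppargc1a. In the vehicle group replicate 4 was highest for both genes and replicate 3 second. In the dexamethasone group replicate 2 was highest for both and replicate 4 second. The desisobutyryl ciclesonide group had replicates 3 and 4 on top for both genes, in a different order. Over the 12 liver libraries, which fall into treatment groups and share their library's depth between the genes, Pearson's r of log2 CPM between Tat and Ppargc1a was 0.92. It is given as a description: 67 of the other 13733 genes had an r over 0.9 with Tat and 162 with Ppargc1a, and Ppargc1a ranked 33 among the genes most like Tat.

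**Figure D3:**
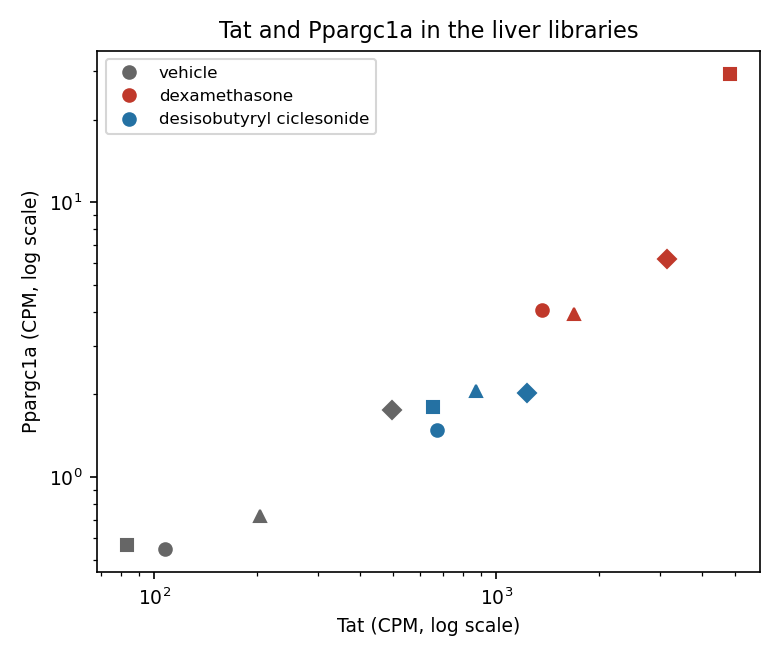
Tat (horizontal) against Ppargc1a (vertical) in the 12 liver libraries, both in CPM on logarithmic axes. Colour gives the treatment and shape the replicate number as in the plots of levels. Vehicle replicate 4 lies next to the desisobutyryl ciclesonide libraries, and dexamethasone replicate 2 is the extreme of both genes.

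The liver gene whose pattern was most like that of Tat was ENSRNOG00000052775 (r = 0.96 over the 12 libraries). Its mean was 7.04 ± 0.907 CPM with vehicle and 11.2 ± 1.99 CPM with dexamethasone (SD, n = 4), a log2 difference of 0.67 where that of Tat was 3.63. The gene most like Ppargc1a was ENSRNOG00000021440 (r = 0.98), with 12.8 ± 3.96 CPM under vehicle and 65.0 ± 60.7 CPM under dexamethasone, a log2 difference of 2.35. Its dexamethasone values ran from 25.8 to 156 CPM. Both genes were picked for their likeness over these same libraries, which the dexamethasone rise dominates, so no test of that rise is given for them.

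The stretches just upstream of both genes are shown because the genes rose together in liver. They come from RefSeq on the build GRCr8, while the counts were made on mRatBN7.2, and both genes matched an entry by symbol. Each run gives the 250 bases before the annotated start on the plus strand, with matches to a searched motif in capitals. The motifs, searched on both strands, were AGAACA (the core letters of a glucocorticoid receptor site), TGACGTCA (the cyclic AMP response element), CCAAT (the CCAAT box) and TATAAA (the TATA box), and none of the matches overlapped.
Tat, chr19:54856354-54856603: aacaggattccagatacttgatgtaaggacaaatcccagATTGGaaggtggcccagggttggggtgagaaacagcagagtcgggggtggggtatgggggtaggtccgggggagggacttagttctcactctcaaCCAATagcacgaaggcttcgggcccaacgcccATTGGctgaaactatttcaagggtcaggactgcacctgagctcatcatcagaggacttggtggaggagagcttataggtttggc
Ppargc1a, chr14:63634058-63634307: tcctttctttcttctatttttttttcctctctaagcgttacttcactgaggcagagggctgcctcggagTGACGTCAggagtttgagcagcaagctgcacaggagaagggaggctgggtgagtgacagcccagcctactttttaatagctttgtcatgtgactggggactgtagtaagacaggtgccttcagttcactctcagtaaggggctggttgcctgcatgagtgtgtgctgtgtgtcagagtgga

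In the Tat window 3 CCAAT matches were found, 1 on the plus strand and 2 on the minus strand, where they read ATTGG. Of 33469 rat windows of the same length, 34.0% held that motif. The Ppargc1a window held 1 TGACGTCA, a palindrome lying 181 to 174 bases before the start, which 1.59% of windows held. AGAACA was in neither window, against 17.5% of all windows, and TATAAA was in neither, against 12.9%. These are matches of letters only, and the known glucocorticoid response region of Tat lies further upstream than the bases shown.

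In lung, Tat was barely detected. The vehicle libraries held 3, 4, 11 and 3 counts, or 0.138, 0.189, 0.561 and 0.123 CPM. With dexamethasone the level was 0.376, 0.908, 0.712 and 0.431 CPM, and with desisobutyryl ciclesonide it was 0.0906, 1.90, 0.248 and 0.331 CPM. All 3 groups overlapped, and a single desisobutyryl ciclesonide library, replicate 2 with 43 counts, was higher than all the rest. The gene passed the expression filter through 4 libraries at or above 0.464 CPM, of which 1 was vehicle, 2 were dexamethasone and 1 was desisobutyryl ciclesonide.

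Neither drug gave a called change of lung Tat. The log2 difference from vehicle was 1.26 with dexamethasone (SE 0.82, 95% interval -0.51 to 3.03, adjusted p = 0.209). Without dexamethasone replicates 3 and 4 it was 1.36 (adjusted p = 0.297, over all alternatives from 0.0910 to 0.363). With desisobutyryl ciclesonide it was 1.40 (SE 0.82, 95% interval -0.37 to 3.16, adjusted p = 0.238), and without replicate 2 of that group it turned to -0.20 (adjusted p = 0.875, the highest over its alternatives, the lowest being 0.125). Between the drugs the difference was 0.14 (SE 0.76, 95% interval -1.50 to 1.77, adjusted p = 0.898), and it was -1.46 without the same library and 0.05 without dexamethasone replicates 3 and 4. These intervals are wide, so sizeable rises over vehicle could have gone uncalled at this depth. Against vehicle they ran from 0.703-fold to 8.15-fold with dexamethasone and from 0.773-fold to 8.96-fold with desisobutyryl ciclesonide. Between the drugs the interval ran from 0.354-fold to 3.41-fold, which leaves room for sizeable changes in either direction.

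The sum of the 162 liver-restricted genes is given beside these values with no test, since low values in vehicle lung were part of their selection. It ranged from 225 to 288 CPM in vehicle lung, from 577 to 995 CPM with dexamethasone and from 420.3 to 1233 CPM with desisobutyryl ciclesonide. The library with most lung Tat, desisobutyryl ciclesonide replicate 2, also had the highest sum. Lung Tat in that library was 0.222% of the mean liver level of its treatment, and the summed set was 0.338% of its own. In replicates 1, 3 and 4 of that group the shares were further apart, at 0.0106% to 0.0387% for Tat and 0.115% to 0.124% for the set. In the dexamethasone group the shares were 0.0137% to 0.0330% for Tat and 0.15% to 0.258% for the set. In the vehicle group they were 0.0554% to 0.252% for Tat and 0.0611% to 0.0782% for the set, with Tat above the set in replicates 2 and 3. All these shares divide CPM scaled within each tissue, so they are not lung-to-liver ratios on 1 common scale. Scaled over all 24 libraries together, mean Tat was 0.161 ± 0.132 CPM (SD, n = 4) in vehicle lung and 342 ± 288 CPM in vehicle liver. Vehicle replicate 3 had the most Tat of its group but a sum of 238 CPM, inside the range of the other vehicle libraries. The set was formed after the data were seen, and its part in the lung values of Tat was not tested.

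**Figure D4:**
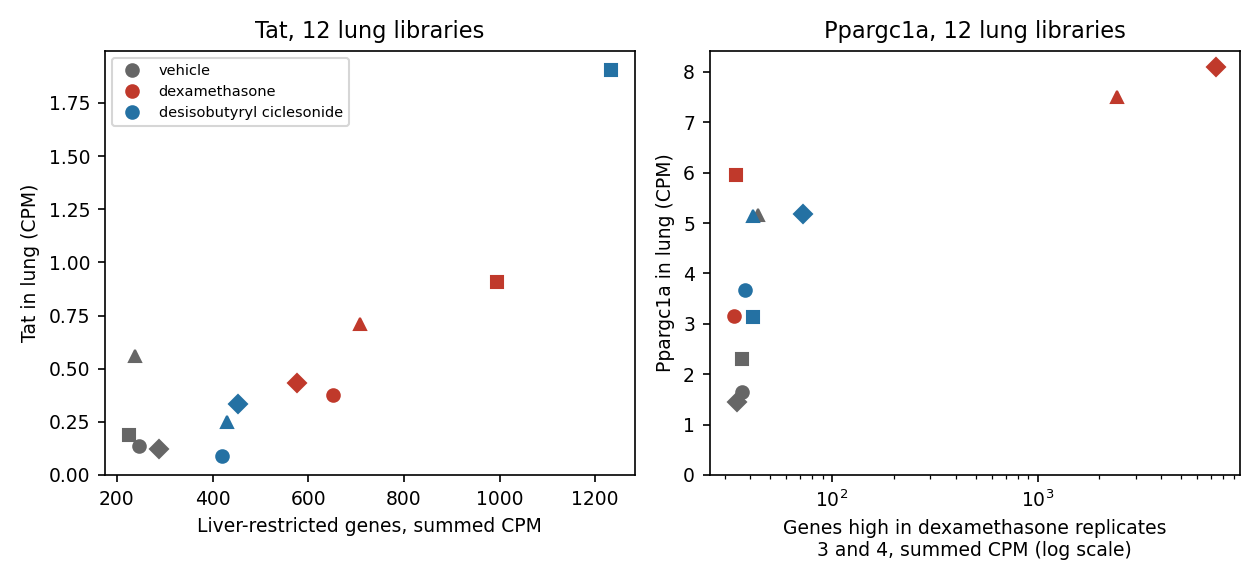
Left, lung Tat (CPM) against the summed CPM of 162 liver-restricted genes. Right, lung Ppargc1a (CPM) against the summed CPM, on a logarithmic axis, of the 49 genes by which dexamethasone replicates 3 and 4 stood out. Each symbol is 1 of 12 lung libraries, coloured by treatment with the shape giving the replicate number. Desisobutyryl ciclesonide replicate 2 is at the upper right of the left panel with 1.90 CPM of Tat, and dexamethasone replicates 3 and 4 are at the upper right of the right panel with 7.50 and 8.09 CPM of Ppargc1a.

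Ppargc1a was well measured in lung and rose with dexamethasone there. Vehicle libraries stood at 1.65, 2.31, 5.15 and 1.44 CPM, dexamethasone libraries at 3.15, 5.96, 7.50 and 8.09 CPM. Vehicle replicate 3 was above dexamethasone replicate 1, so the groups overlapped, but 3 of 4 dexamethasone libraries exceeded every vehicle library. The means were 6.17 ± 2.21 CPM (SD, n = 4) and 2.64 ± 1.72 CPM, a log2 change of 1.23 (SE 0.40, adjusted p = 0.0187), or 2.35-fold (95% interval 1.29 to 4.29). It was the only call among the genes analysed in this comparison, in which 26.9% of all genes tested were called higher.

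The lung rise of Ppargc1a passed in 19 of 21 alternatives, some of which left out a desisobutyryl ciclesonide library, outside this comparison. Dexamethasone replicates 3 and 4, the libraries with the highest Ppargc1a, were those in which the 49 genes summed to 2437 and 7356 CPM, against 33.2 to 71.9 CPM in the other lung libraries. Without them the log2 change was 0.81 (adjusted p = 0.175), and without vehicle replicate 1 it was 1.09 (adjusted p = 0.0504). Those were the 2 alternatives that missed the threshold, and over all of them the adjusted p ran from 0.00100 to 0.175. Dexamethasone replicate 2, with a sum of 34.2 CPM over the 49 genes, held 5.96 CPM of Ppargc1a, above every vehicle library. In liver the 49 genes summed to 168 to 290 CPM with dexamethasone, 34.9 to 63.8 CPM with vehicle and 38.3 to 70.0 CPM with desisobutyryl ciclesonide. The 49 genes carry no names in the files, were picked after the data were seen, and their part in the result was not tested.

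With desisobutyryl ciclesonide, lung Ppargc1a was at 3.67, 3.15, 5.15 and 5.17 CPM, a mean of 4.28 ± 1.03 CPM (SD, n = 4) between those of the other groups. All 4 libraries lay above the median of vehicle, but only 1 lay above vehicle replicate 3. The log2 difference from vehicle was 0.70 (SE 0.40, 95% interval -0.17 to 1.57, adjusted p = 0.230). Without vehicle replicate 3 it was 1.24 and passed (adjusted p = 0.0293, the lowest over all alternatives, the highest being 0.435). The difference from dexamethasone was -0.53 (SE 0.40, 95% interval -1.39 to 0.32, adjusted p = 0.284), and without dexamethasone replicates 3 and 4 it was -0.09 (adjusted p = 0.890). Neither gene was called for desisobutyryl ciclesonide in lung, either against vehicle, where 24.1% of genes were called, or against dexamethasone, where 49.5% were. At an unadjusted p under 0.05 the quasi-likelihood test would call 0 of the 4 differences as well, and DESeq2 and limma-voom called none at their adjusted p.

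**Figure D5:**
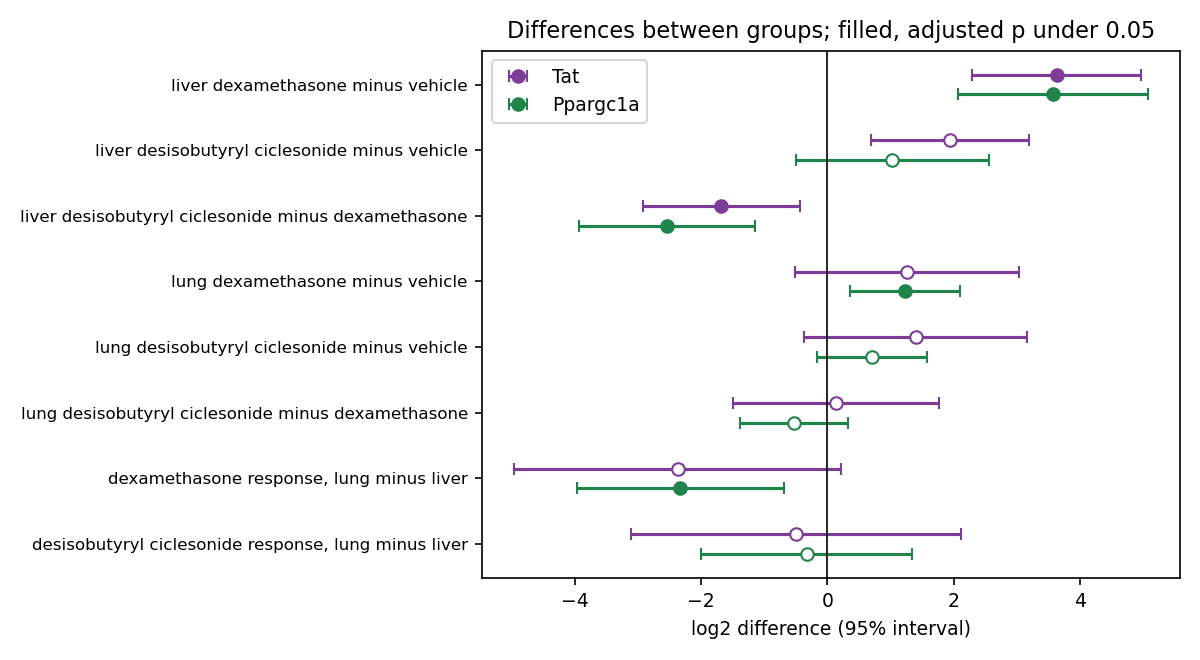
Log2 differences of Tat and Ppargc1a between the treatments in each tissue and in response between the tissues, with 95% intervals from edgeR's quasi-likelihood fit. The difference between vehicle lung and vehicle liver is not drawn. Filled symbols have an adjusted p under 0.05. Both genes are filled for dexamethasone against vehicle in liver, at 3.63 and 3.58, and in lung only Ppargc1a is, at 1.23. Also filled are both genes for desisobutyryl ciclesonide minus dexamethasone in liver, at -1.68 and -2.55. The last filled symbol is Ppargc1a for the dexamethasone response, lung minus liver, at -2.33, from the fit without a block for the pup.

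The tissues differed greatly in their baseline level of Tat and not measurably in that of Ppargc1a. Fitted over all 24 libraries, Tat was 2127-fold lower in vehicle lung than in vehicle liver (log2 difference -11.05, SE 0.87, 95% interval -12.86 to -9.25, adjusted p = 1.83e-10). The size of this gap rests on 3 to 11 lung counts a library: the log2 difference was -11.83 without lung vehicle replicate 3, -10.31 without liver vehicle replicate 4 and -9.83 without TMM scaling. All 29 alternatives passed, though many of them left out a library of a drug group, which is outside this difference. Of all genes tested, 31.1% were called lower in lung. For Ppargc1a the log2 difference was 0.27 (SE 0.59, 95% interval -0.95 to 1.48, adjusted p = 0.695), higher in lung. This value too depends on the scaling between tissues. The TMM factors were 0.528 to 0.711 in liver and 1.43 to 1.66 in lung, and without them the difference was 1.51 and passed (adjusted p = 0.0164, over all alternatives from 0.0164 to 0.903), while the median over all genes moved from 0.18 to 1.42. Relative to that median Ppargc1a lay near the middle of all genes on each scale. On the main one 47.4% of genes had a log2 difference above its own, counted with sign.

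The order of the group means in liver was the same for both genes: dexamethasone, desisobutyryl ciclesonide, vehicle. In neither gene was desisobutyryl ciclesonide called against vehicle there. In lung, Ppargc1a kept that order of means, but desisobutyryl ciclesonide did not differ from either neighbour by the test. For lung Tat the means of 0.607 ± 0.249 and 0.644 ± 0.847 CPM (SD, n = 4) under the drugs lay well within each other's spread, and vehicle had 0.253 ± 0.208 CPM.

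Without a block for the pup, Ppargc1a responded less to dexamethasone in lung than in liver, and with it the call was lost. The lung change less the liver change was -2.33 on the log2 scale (SE 0.79, 95% interval -3.96 to -0.69, adjusted p = 0.0253), and 17.8% of the 13245 genes tested in both tissues were called in that direction. Liver dexamethasone replicate 2 weighed heavily on it: without that library the difference was -1.15 (adjusted p = 0.134). The call was also lost without lung vehicle replicate 3 (-1.74), lung dexamethasone replicate 1 (-2.05) or liver vehicle replicates 1 (-2.16) and 2 (-2.16), and with the pup as a block, where the difference was -1.80 (adjusted p = 0.0664). Without lung dexamethasone replicates 3 and 4 it was -2.75 (adjusted p = 0.0278). Over all alternatives the adjusted p ran from 0.0111 to 0.134. For Tat the same difference was -2.37 (SE 1.25, 95% interval -4.96 to 0.22, adjusted p = 0.149), with few counts on the lung side, and it passed only without liver vehicle replicate 4 (-3.12, adjusted p = 0.0341, over all alternatives from 0.0341 to 0.469). Without lung dexamethasone replicates 3 and 4 it was -2.26.

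For desisobutyryl ciclesonide no difference in response between the tissues was called in either gene, with 4.31% of genes called. The lung change less the liver change was -0.49 for Tat (SE 1.26, 95% interval -3.11 to 2.12, adjusted p = 0.884) and -0.33 for Ppargc1a (SE 0.81, 95% interval -2.01 to 1.34, adjusted p = 0.877). The intervals span more than a 4-fold difference each way for Tat.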

How the data were processed

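The deposited files give each library's raw counts, whole numbers by Ensembl gene. For their making, cutadapt, HISAT2 and HTSeq on the build mRatBN7.2 are listed, with no versions, per the submitters' processing notes. Libraries were directional, per the labels' protocols, but the strand setting of the counting is not stated, so reads of overlapping or antisense genes cannot be told apart. The 5 summary rows, 16.8% to 31.8% of entries, entered neither library sizes nor tests. Counts were analysed with edgeR 4.0.16 (default expression filter, TMM, robust quasi-likelihood F-test) in R 4.3.3, over the 12 libraries of a tissue or all 24 for tissue differences. P-values were adjusted over all genes by the Benjamini-Hochberg method, with a threshold of 0.05. The procedure was tested on simulated data with less spread between libraries than Tat and Ppargc1a had, so that check does not cover these genes. Each SE was computed from the log2 change and its F statistic, and CPM use the TMM-scaled library size of the tissue. Alternatives used DESeq2 1.42.0, limma-voom (limma 3.58.1), other scalings, no filter, replicate blocks and left-out libraries. Each library of the fit was left out in turn, also those of groups outside the comparison. Counts of alternatives that passed therefore include refits that hardly bear on it.

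In the alternative fits with the pup as a block, replicate numbers were taken to mark pups across tissues, though the labels do not say that they do. The main fits of tissue differences had no such block. Each of the 12 lung libraries was compared with the 4 liver libraries of its treatment by their departures from the group means. In all 12 the departures correlated best with those of the same-numbered liver, though weakly (r from 0.114 to 0.316). All 36 replicate pairs differed by more than counting noise (chi-square at least 11.0 times its degrees of freedom). The genes and lists were chosen with earlier results of these data known. The fixed naming rule gives both genes in every comparison and the gene most like each in liver, cut to 2 identifiers because 0 of 30560 identifiers matched the 47357 reference genes. Gene lists of gluconeogenesis, amino acid breakdown, the urea cycle, hepatic regulators, oxidative genes, glucocorticoid targets and cell markers could not be run for that reason. G6pc1 is not reported here.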

Additional observations from a re-analysis of the deposited data

Results flagged for a closer look

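Over 2 genes in the same 6 groups, 12 sets of 4 values that are not independent, 4 sets held 1 library that stood apart from the other 3 by a gap larger than Dixon's criterion at 95% allows. Chance gives about 5% of such sets where values follow a normal distribution. The criterion was applied to CPM and not to log2 CPM, and all 4 flagged values were the highest of their set. The number of flagged sets is therefore not read as an excess over that share. Ppargc1a was at 29.2 CPM in liver dexamethasone replicate 2, with the other 3 libraries at 3.91 to 6.24 CPM. It was at 1.76 CPM in liver vehicle replicate 4, with the others at 0.548 to 0.722 CPM. Tat was at 1.90 CPM in lung desisobutyryl ciclesonide replicate 2, with the others at 0.0906 to 0.331 CPM. It was at 0.561 CPM in lung vehicle replicate 3, with the others at 0.123 to 0.189 CPM. That value is 11 counts, and its Poisson interval of 0.280 to 1.00 CPM overlaps the 0.0514 to 0.483 CPM of the next library. The 2 liver libraries were also the highest of their groups for Tat, at 4809.9 and 495 CPM, and lung vehicle replicate 3 was also the highest of its group for Ppargc1a, at 5.15 CPM.

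The response of Ppargc1a to dexamethasone differed between the tissues by the interaction test, with a lung change smaller than the liver change by a log2 difference of -2.33 (adjusted p = 0.0253 by edgeR's quasi-likelihood test). With the pup as a block, the pairing that the replicate numbers support, the call was lost (-1.80, adjusted p = 0.0664). Of 30 alternatives 24 passed, with adjusted p from 0.0111 to 0.134. Some of the 30 left out a desisobutyryl ciclesonide library, which is outside this difference and enters only through the scaling and the shared spread. What sets these libraries and this difference apart was not tested.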

How the results depend on the processing

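Of 417 refits of 18 differences, 387 kept direction and side of the threshold. Many of these refits left out a library of a group outside the difference, so the count overstates how far the results were tried. Liver Tat with dexamethasone, for example, was 3.62864 without desisobutyryl ciclesonide replicate 1 and 3.62878 with all libraries. The rises of both genes with dexamethasone in liver, the fall of Ppargc1a between the drugs in liver and the tissue difference of Tat passed in every refit run. With 1 library left out, the log2 change of liver Tat with dexamethasone ran from 3.22 to 4.39 and that of Ppargc1a from 2.39 to 4.13. For Tat in liver, desisobutyryl ciclesonide less vehicle was 1.95 with DESeq2 and 2.25 with limma-voom, both past the threshold, and 1.67 to 2.70 with 1 library left out. Desisobutyryl ciclesonide less dexamethasone was -1.66 without the expression filter, which missed the threshold, and -1.91 to -1.27 with 1 library left out. In lung, the same difference of Tat turned to -0.55 with limma-voom and ran from -1.46 to 0.50 with 1 library left out (-0.03 and -0.01 without dexamethasone replicates 1 and 4), and desisobutyryl ciclesonide less vehicle ran from -0.20 to 2.11. No value for lung Tat could be had in fits to the 8 libraries of the groups compared, where it missed the expression filter. For lung Ppargc1a, dexamethasone less vehicle was 0.81 without dexamethasone replicates 3 and 4 and 1.05 to 1.78 with 1 library left out, and desisobutyryl ciclesonide less vehicle was 0.50 to 1.24. With 1 library left out, vehicle lung less vehicle liver of Ppargc1a ran from -0.37 to 0.81, and was 1.51 without TMM scaling. Lung change less liver change ran from -2.87 to -1.15 for Ppargc1a and -3.12 to -1.64 for Tat with dexamethasone, and from -0.88 to 0.28 and -2.09 to 0.27 with desisobutyryl ciclesonide.

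With the replicate number as a block within a tissue, Tat in liver under desisobutyryl ciclesonide passed (2.15, adjusted p = 0.0353, over all alternatives from 0.0128 to 0.185), and the lung difference of Tat between the drugs was -0.28. Same-numbered libraries of different treatments deviated together in some pairs and oppositely in others (r from -0.257 to 0.262 in lung and from -0.116 to 0.12 in liver). The numbers were therefore not taken to pair treatments. With the pup as a block across tissues, the difference in dexamethasone response of Ppargc1a was -1.80, and no other call changed.

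Over all genes, 621 were called for desisobutyryl ciclesonide in liver, 1191 with DESeq2 and 295 to 409 without any of liver vehicle replicates 2, 3 or 4 or desisobutyryl ciclesonide replicates 2, 3 or 4. In lung 3884 were called, and 2564 without desisobutyryl ciclesonide replicate 3. Without TMM scaling, an alternative added after seeing the data, 29.4% of liver dexamethasone calls were higher, against 47.5% with it, and the median log2 change over all genes was -0.26 against -0.02. Liver Tat and Ppargc1a then changed by 3.37 and 3.26. Upper-quartile scaling, also added then, gave 37.4%. Depth limits Tat in lung, with 2 to 43 counts a library, and Ppargc1a in vehicle liver, with 10 to 33. Where a call changed, the cause was not tested.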
